A study of Mus musculus with 6 samples.

Results

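Transcripts of the nuclear genes for oxidative phosphorylation subunits were compared between Blimp1 gfp/gfp and Blimp1 +/gfp regulatory T cells of the mouse. Members were chosen by gene symbol in the platform annotation: symbols starting Nduf (without the Ndufaf assembly factors), Uqcr, Atp5 or Cox4 to Cox8, and Sdha, Sdhb, Sdhc, Sdhd and Cycs. The array named 77 of them, and 68 passed the detection filter, of 8743 genes tested in all. No probe carried the single symbol Cycs, so cytochrome c was not analysed here. Blimp1, encoded by Prdm1, is a transcriptional repressor. Blimp1 gfp/gfp cells carry 2 gfp alleles of this gene and Blimp1 +/gfp cells 1 gfp allele beside a normal one, so every sample holds at least 1 gfp allele, and no sample without gfp was used. From general knowledge of the allele, the gfp cassette disrupts the gene, so that gfp/gfp cells lack functional protein. The labels give the strain C57/B6, bone marrow as tissue and 3 samples per genotype, each on 1 Illumina BeadChip array, and they name no age, cell sort or pooling. They also name no separate animals, so the p-values speak of the spread among these 6 samples, and that spread may be technical.

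Oxidative phosphorylation takes place in the inner mitochondrial membrane. Complex I (NADH dehydrogenase) and complex II (succinate dehydrogenase) pass electrons to ubiquinone, complex III hands them to cytochrome c, and complex IV (cytochrome c oxidase) passes them to oxygen. The proton gradient built along the way drives ATP synthase. Most subunits are encoded in the nucleus and assembled with a small set encoded in mitochondrial DNA, and regulatory T cells are known to draw more on this pathway than effector T cells, which lean on glycolysis.

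Between 31.5% and 34.5% of the 46632 probes were detected per array, and the number of arrays limits the precision. The 3 Blimp1 gfp/gfp arrays were on 1 BeadChip and the 3 Blimp1 +/gfp arrays on another, so an effect of the BeadChip and one of the genotype cannot be told apart. Eif2s3y, a gene of the Y chromosome, had normalized log2 intensities of 5.01, 5.23 and 5.46 in Blimp1 gfp/gfp, where no array detected it, against 10.49, 10.53 and 10.68 in Blimp1 +/gfp, where all 3 did. Xist, made from the inactive X of females, had 9.89, 11.37 and 11.02 in Blimp1 gfp/gfp, against 9.69, 9.20 and 5.52 in Blimp1 +/gfp, and was detected on 3 and 2 arrays. The Y-linked signal thus followed genotype on every array, so the sex of the cells and the genotype cannot be told apart in any difference given here. Xist did not follow it in this way. Blimp1 +/gfp replicates 1 and 2 held Xist beside Eif2s3y, and replicate 3 held Eif2s3y without detected Xist, so the sex-linked signal also varied within Blimp1 +/gfp. Prdm1 had normalized log2 intensities of 7.14, 7.75 and 7.54 in Blimp1 gfp/gfp, against 5.76, 5.82 and 5.50 in Blimp1 +/gfp. No source used here gives the place of that probe relative to the cassette, so it does not check the labels. Foxp3, the defining transcription factor of regulatory T cells, and Cd3e, a T cell receptor chain, were detected on all 6 arrays. The summed linear signal of 11 regulatory T cell markers lay between 41126 and 60879 in Blimp1 gfp/gfp and between 55062 and 60638 in Blimp1 +/gfp. Their median log2 deviations from the mean over 6 arrays did not overlap, at -0.38, 0.05 and -0.02 against 0.21, 0.15 and 0.16. Of the 11 differences, 3 were above 0. Tnfrsf18 was lower in Blimp1 gfp/gfp, at -1.11 ± 0.18 (SE; limma, Benjamini-Hochberg adjusted p = 0.0242). The summed signal of 10 T cell markers lay between 114789 and 137050 in Blimp1 gfp/gfp and between 130427 and 142862 in Blimp1 +/gfp. The sum of 7 CD8 and NK cell markers was lower in Blimp1 gfp/gfp without overlap, at 14011, 7250 and 17781, against 21087, 24766 and 20981 in Blimp1 +/gfp. Nkg7, the brightest of them, weighs most in this sum, with log2 intensities of 12.88, 11.97 and 13.56 against 13.89, 14.21 and 13.93. Of the 6 markers tested singly, 2 differences were above 0. Their median log2 deviations from the mean over 6 arrays overlapped, at 0.12, -0.43 and 0.32 against 0.28, 0.22 and 0.30. The 8 erythroid and megakaryocyte markers had the widest spread, at 2414, 18580 and 6547 in Blimp1 gfp/gfp, against 359, 1071 and 26223 in Blimp1 +/gfp. The 11 dendritic and antigen presentation markers summed to 11995 to 20588 in Blimp1 gfp/gfp and to 15060, 17448 and 71936 in Blimp1 +/gfp, and 12 myeloid and granulocyte markers to 3210 to 4737 in Blimp1 gfp/gfp and 2546 to 12475 in Blimp1 +/gfp. These 2 sums and the erythroid one were highest in Blimp1 +/gfp replicate 3. Tested singly, 1 of 6 myeloid and granulocyte markers passed, Cebpa, at 2.37 ± 0.28 (SE; limma, Benjamini-Hochberg adjusted p = 0.00872). Of 9 dendritic and antigen presentation markers 1 passed, Irf8, at -1.79 ± 0.33 (0.0348 in the same test). In these lists 3 of the 6 and 2 of the 9 differences were above 0. The 9 B and plasma cell markers lay between 1770 and 3672 in Blimp1 gfp/gfp and between 1312 and 2697 in Blimp1 +/gfp. The part of these cells in the results was not tested. In a sample of many cells, a different cell mixture and a different amount of RNA per cell cannot be told apart.

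No oxidative phosphorylation gene passed the test between the genotypes. Of the 68 genes, 0 were higher and 0 lower in Blimp1 gfp/gfp (limma, Benjamini-Hochberg adjusted p under 0.05), where 4.12% of all genes tested passed, 2.42% higher and 1.69% lower. The smallest adjusted p was 0.0743, for Ndufb11. At an unadjusted p under 0.05, limma gave 6 genes higher (8.82% of the 68, against 11.3% of all genes) and 0 lower (against 7.22%). The 3 arrays of Blimp1 gfp/gfp lay above the 3 of Blimp1 +/gfp for 10 genes, or 14.7%, close to the 15.4% over all genes. Both counts include Ndufb2, which passed the filter only through Blimp1 gfp/gfp, and 5 and 9 remain of the 67 genes detected in both genotypes. They lay below for 0, where all genes gave 10.4%. The median log2 difference, Blimp1 gfp/gfp minus Blimp1 +/gfp, was 0.09 over the 68 genes and 0.03 over all genes, and 47 of the 68 differences (69.1%) were above 0, against 54.7% of all genes. The median moved with single arrays in both directions. Without Blimp1 gfp/gfp replicate 1 it was -0.01, without Blimp1 gfp/gfp replicate 2 it was 0.15, without Blimp1 +/gfp replicate 1 it was 0.19 and without Blimp1 +/gfp replicate 3 it was 0.02.

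The intervals show how large a difference these arrays could have missed. For 61 of the 68 genes (89.7%), the 95% confidence interval of the difference lay within a 2-fold change either way, which held for 73.5% of all genes tested. The 7 exceptions were Ndufb2, Ndufb11, Ndufb4, Ndufb7, Cox7a1, Atp5md and Atp5k, and in each of them only the upper end passed 2-fold. The estimates of 51 members (75.0%) lay within 1.2-fold of no difference, as did 57.4% of all genes. Part of this narrowness goes with signal: among the 53 members with a mean log2 intensity of 10 or more, 53 intervals lay within 2-fold, and so did 88.7% of the 2938 genes of that brightness. The remaining 15 members, which were dimmer, had a median difference of 0.40, against 0.04 over all 5805 genes under the same level. They hold 5 of the 6 genes with an unadjusted p under 0.05 (limma), all higher in Blimp1 gfp/gfp. That is 33.3% of the 15, against 12.95% higher among those 5805 genes. The 5 and the median of 0.40 include Ndufb2, which passed the filter only through Blimp1 gfp/gfp.

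**Figure D1:**
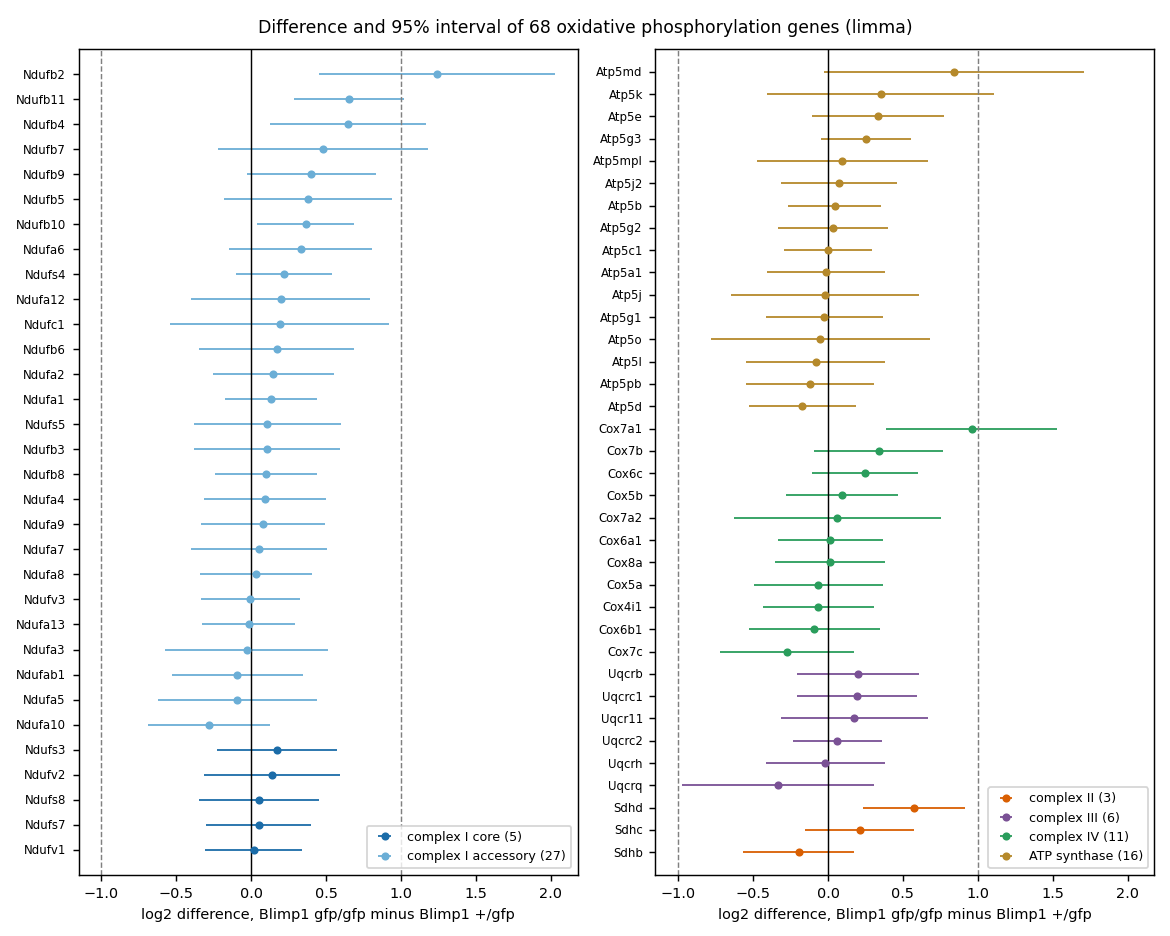
Log2 difference (x axis) of each of the 68 genes tested (y axis), Blimp1 gfp/gfp minus Blimp1 +/gfp, with its 95% confidence interval from limma, coloured by complex. The dashed lines mark a 2-fold change, and 61 of the 68 intervals lie between them. Ndufb2, at the far right, was below detection in Blimp1 +/gfp.

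**Figure D2:**
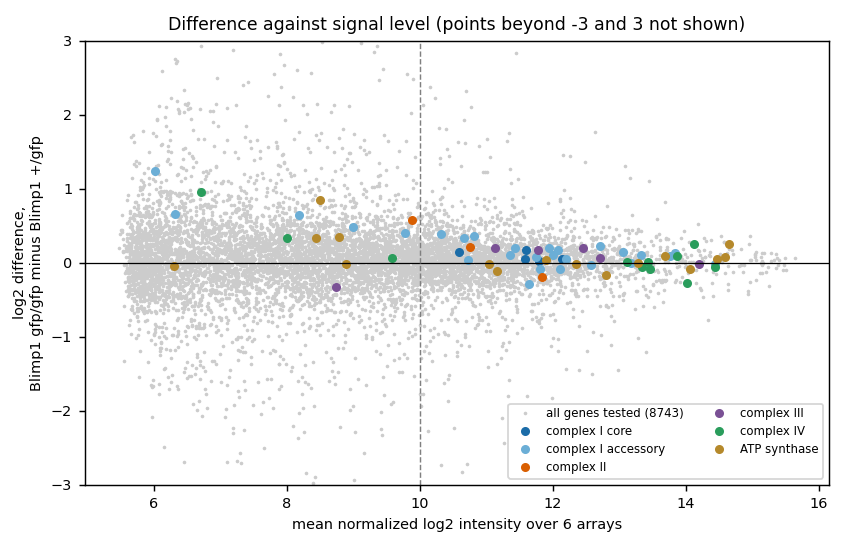
Log2 difference (y axis) against the mean normalized log2 intensity over 6 arrays (x axis) for all 8743 genes tested (grey) and the 68 members (coloured by complex), with a dashed line at 10. The members right of the line lie close to 0, and their larger differences, such as that of Cox7a1, are left of it.

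The catalytic core of complex I, which carries the flavin and the iron-sulfur clusters, showed small differences. The 5 core genes tested differed by 0.02 to 0.17 on the log2 scale, and all 5 intervals lay within 2-fold. Ndufs3 had log2 intensities of 11.76, 11.67 and 11.60 in Blimp1 gfp/gfp, against 11.76, 11.49 and 11.25 in Blimp1 +/gfp. The groups overlapped, and the difference was 0.17 ± 0.17 (SE; limma, Benjamini-Hochberg adjusted p = 0.665). A dimmer Ndufs3 probe, also detected on all 6 arrays, differed the other way by -0.30. Ndufv2, which carries an iron-sulfur cluster next to the flavin site, differed by 0.14 ± 0.19, and Ndufs7, the subunit of the last cluster before ubiquinone, by 0.05 ± 0.15. Ndufv1, which binds NADH and was chosen after its values were seen, had 11.92, 11.66 and 11.83 in Blimp1 gfp/gfp, against 11.74, 11.81 and 11.80 in Blimp1 +/gfp. Its values overlapped throughout, with a 95% interval of the difference from -0.30 to 0.34. The probe of Ndufs1, the largest subunit of this core, was not well above background on any array.

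Accessory subunits surround the complex I core and hold it together. Of the 27 tested, which by name include Ndufa4, 21 differences were above 0, or 77.8%, against 54.7% of all genes. At an unadjusted p under 0.05, limma gave 4 of them higher (14.8%, against 11.3% of all genes) and 0 lower. These 4, Ndufb11, Ndufb2, Ndufb4 and Ndufb10, are subunits of the membrane arm. Ndufb11 had 6.56, 6.63 and 6.76 in Blimp1 gfp/gfp, against 6.22, 5.90 and 5.87 in Blimp1 +/gfp. The groups did not overlap, and the difference of 0.65 ± 0.16 (SE), a 1.57-fold change with a 95% interval of 1.22 to 2.03, did not pass after adjustment (limma, Benjamini-Hochberg adjusted p = 0.0743). Ndufb11 lies on the X chromosome. The part of the Xist difference in it was not tested. The other X-linked members were Cox7b (0.34 ± 0.18) and Ndufa1 (0.14 ± 0.13).

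Ndufb2 had 6.69, 6.02 and 7.22 in Blimp1 gfp/gfp, against 5.69, 5.52 and 5.0 in Blimp1 +/gfp. It was detected on all 3 Blimp1 gfp/gfp arrays and on 0 Blimp1 +/gfp arrays, so it passed the filter only through the group in which it was high, at exactly the 3 arrays required. By the group means it was at least 1.83-fold higher, with the Blimp1 +/gfp side at the detection limit (limma, Benjamini-Hochberg adjusted p = 0.0996). The 2 other Ndufb2 probes were not well above background on any array. Ndufb4 had 8.67, 8.42 and 8.44 in Blimp1 gfp/gfp, against 8.14, 8.04 and 7.42 in Blimp1 +/gfp. The lowest of these was Blimp1 +/gfp replicate 3, and the difference was 0.64 ± 0.22 (limma, Benjamini-Hochberg adjusted p = 0.176), or 0.43 without that array. Ndufb10 differed by 0.36 ± 0.14, Ndufb9 by 0.40 ± 0.18 and Ndufs4, a subunit of the arm that faces the matrix, by 0.22 ± 0.14, each without overlap between the groups. Those 3 are named because their groups did not overlap. Among the accessory subunits the largest difference below 0 was that of Ndufa10, at -0.28 ± 0.17 (limma, Benjamini-Hochberg adjusted p = 0.447). Ndufa4, named for complex I but now counted as a subunit of complex IV, had 13.98, 13.78 and 13.68 in Blimp1 gfp/gfp, against 13.98, 13.60 and 13.58 in Blimp1 +/gfp, a difference of 0.09 ± 0.17.

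Complex II, which is also an enzyme of the citric acid cycle, was measured through 3 of its 4 genes. Sdhd, which encodes a membrane anchor of the complex, had 10.19, 10.15 and 10.15 in Blimp1 gfp/gfp, against 9.48, 9.79 and 9.50 in Blimp1 +/gfp. The groups did not overlap and the Blimp1 gfp/gfp arrays were nearly equal. The difference of 0.57 ± 0.14 (SE) was a 1.49-fold change with a 95% interval of 1.17 to 1.88, and it did not pass (limma, Benjamini-Hochberg adjusted p = 0.0840). Its anchor partner Sdhc differed by 0.21 ± 0.15, with 10.92, 10.75 and 10.90 in Blimp1 gfp/gfp, against 10.44, 10.67 and 10.83 in Blimp1 +/gfp. Sdhb, the iron-sulfur subunit, differed the other way by -0.20 ± 0.16, with 11.86, 11.65 and 11.71 in Blimp1 gfp/gfp, against 12.14, 11.91 and 11.76 in Blimp1 +/gfp. Both pairs overlapped, so the 3 genes did not share a direction beyond their spread. The probe of Sdha, the flavoprotein subunit that oxidises succinate, was not well above background on any array.

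Complex III showed no gene with an unadjusted p under 0.05 (limma), and the 6 tested differed by -0.34 to 0.20, with every interval within 2-fold. Uqcrq, a small subunit near the ubiquinone pocket, had 8.06, 9.06 and 8.59 in Blimp1 gfp/gfp, against 9.16, 8.79 and 8.76 in Blimp1 +/gfp. Blimp1 gfp/gfp replicate 1 was the lowest array, in contrast to most members, and the difference was -0.34 ± 0.27 (SE; limma, Benjamini-Hochberg adjusted p = 0.587). Without that array Uqcrq differed by -0.08. Uqcrb, which lies beside the ubiquinone site, differed by 0.20 ± 0.17 and Uqcrc1, a core protein on the matrix side, by 0.19 ± 0.17. The 2 probes of Uqcrfs1, the Rieske iron-sulfur protein, were not well above background on any array.

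Complex IV subunits exist in part as isoforms of different tissues, and the arrays separated these by detection. The broadly expressed Cox4i1, Cox6a1, Cox6b1, Cox7a2 and Cox8a were detected on all 6 arrays. Cox4i2, a lung isoform, and Cox6a2, a heart and muscle isoform, were each detected on 1 array, and Cox6b2, known from testis, on 2. Cox8b, a heart and muscle isoform, and Cox7b2 and Cox8c, known from testis, were detected on 0. None of the 6 reached the filter. Cox7a1, the heart and muscle form of subunit 7a, did: it was detected on 3 Blimp1 gfp/gfp and 2 Blimp1 +/gfp arrays. Its values were 7.26, 7.28 and 7.03 in Blimp1 gfp/gfp, against 6.54, 5.72 and 6.43 in Blimp1 +/gfp, without overlap. The difference was 0.96 ± 0.24 (SE), a 1.95-fold change with a 95% interval of 1.31 to 2.89 (limma, Benjamini-Hochberg adjusted p = 0.0839). Its general counterpart Cox7a2 had 10.02, 9.44 and 9.37 in Blimp1 gfp/gfp, against 10.07, 9.45 and 9.12 in Blimp1 +/gfp. These overlapped almost array for array, with a difference of 0.06 ± 0.29 and a 95% interval of -0.63 to 0.75.

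The 11 genes of complex IV tested, without Ndufa4, differed by -0.28 (Cox7c) to 0.96 (Cox7a1), and the other general isoforms lay close to 0. Cox4i1, a regulatory subunit, had 14.55, 14.19 and 14.47 in Blimp1 gfp/gfp, against 14.61, 14.38 and 14.43 in Blimp1 +/gfp, a difference of -0.07 ± 0.16. Cox6a1 differed by 0.01 ± 0.15, Cox8a by 0.01 ± 0.16 and Cox6b1 by -0.09 ± 0.18. The signs of these 4 changed in 2 to 5 of the 19 alternative settings, so they have no direction. Cox6c, a small membrane subunit, had 14.31, 14.09 and 14.34 in Blimp1 gfp/gfp, against 14.16, 13.92 and 13.92 in Blimp1 +/gfp, a difference of 0.25 ± 0.15 (limma, Benjamini-Hochberg adjusted p = 0.447). Cox7b had 8.21, 8.10 and 8.21 in Blimp1 gfp/gfp, against 8.07, 7.95 and 7.50 in Blimp1 +/gfp. The groups did not overlap, and the adjusted p was 0.387 (limma, Benjamini-Hochberg). The difference of 0.34 was 0.17 without Blimp1 +/gfp replicate 3.

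ATP synthase divided evenly, with 8 of its 16 differences above 0, a median of 0.02 and 0 genes at an unadjusted p under 0.05 (limma). They ran from -0.17 (Atp5d) to 0.84 (Atp5md). In the catalytic part, Atp5b and Atp5c1 differed little, and the 2 detected probes of Atp5a1, the alpha subunit, gave -0.01 and 0.71. Atp5b, the beta subunit that makes ATP, had 14.57, 14.49 and 14.41 in Blimp1 gfp/gfp, against 14.35, 14.50 and 14.49 in Blimp1 +/gfp, a difference of 0.04 ± 0.13. Atp5c1, the central shaft, had 13.33, 13.25 and 13.27 in Blimp1 gfp/gfp, against 13.31, 13.28 and 13.27 in Blimp1 +/gfp. Its 95% interval ran from -0.30 to 0.29, a ratio of 0.815 to 1.22. Atp5b and Atp5c1 were chosen after their values were seen.

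Atp5g1, Atp5g2 and Atp5g3 encode the same mature ring protein behind different import sequences, and each was detected on all arrays. Atp5g3 had 14.79, 14.76 and 14.76 in Blimp1 gfp/gfp, against 14.42, 14.57 and 14.55 in Blimp1 +/gfp. The groups did not overlap, but the difference of 0.26 ± 0.13 (SE) did not pass (limma, Benjamini-Hochberg adjusted p = 0.351). Atp5g1 differed by -0.02 ± 0.16 and Atp5g2 by 0.03 ± 0.15. Atp5md, a small subunit that helps join the enzyme into dimers, had 9.38, 8.45 and 8.94 in Blimp1 gfp/gfp, against 8.56, 8.31 and 7.37 in Blimp1 +/gfp. The groups overlapped and the difference of 0.84 ± 0.37 was among the least precise (limma, Benjamini-Hochberg adjusted p = 0.285). It was 0.49 when its lowest array, Blimp1 +/gfp replicate 3, was left out. Atp5e, the epsilon subunit, differed by 0.33 ± 0.19, or 0.20 without the same array.

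**Figure D3:**
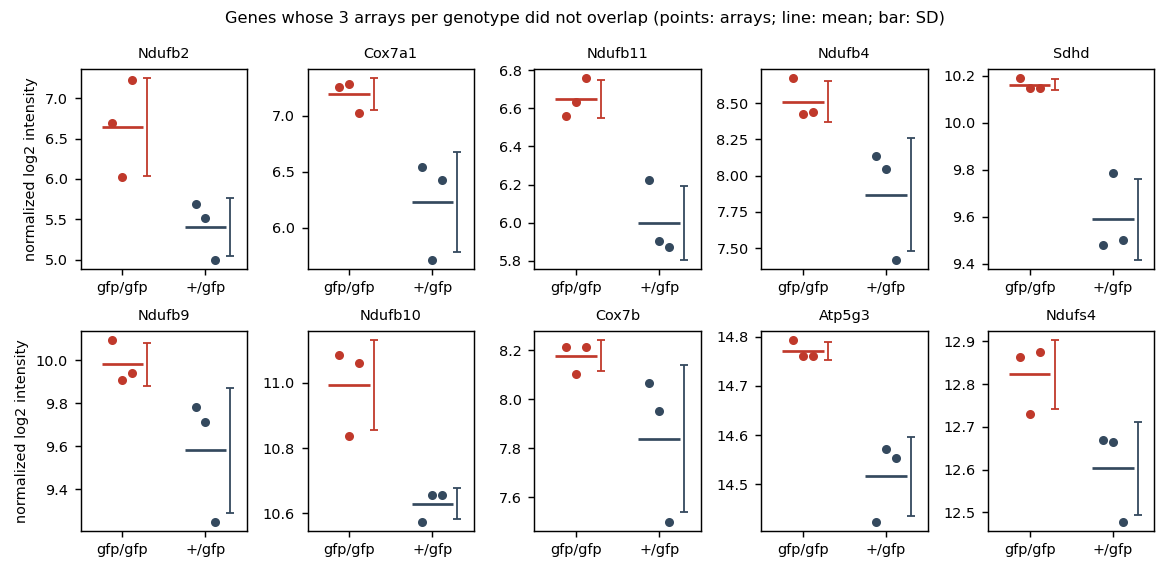
Normalized log2 intensity (y axis, a different range in each panel) of the 10 genes whose arrays did not overlap, with Blimp1 gfp/gfp left of Blimp1 +/gfp. Points are arrays, lines are means of 3 and bars are SDs. The Blimp1 gfp/gfp arrays are the higher ones in all 10 panels, and no gene passed the adjusted test.

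The DNA around the transcription starts of these genes was examined for short motifs of factors known to drive mitochondrial genes. The core letters of the Blimp-1 site were sought too. RefSeq windows of 250 bases before to 50 after the transcription start (GRCm38.p6) were held for 58 of the 68 genes, in 63 windows. On either strand, the NRF1 letters GCGCATGCG were in 11.1% of these windows, against 1.75% of all 32851 windows. The ETS letters CCGGAAG, read by GABPA, were in 25.4% against 8.86%, and the YY1 letters AAGATGGCG in 9.52% against 1.40%. The ERR letters TCAAGGTCA were in 3.17% against 0.423%, the E-box CACGTG in 11.1% against 7.15%, and CCAAT in 38.1% against 37.4%. The Blimp-1 core GAAAGT was in 20.6% against 14.3%. Its letters were in the windows of 11 of the 58 genes, among them Cox7a1, Cox7a2 and Cox8a. These are matches of letters and not binding sites. NRF1 and ETS matches can lie next to each other, and none of the 7 motifs contains another.

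Atp5l, whose window holds NRF1 and ETS letters, differed by -0.08 ± 0.19 on its brighter probe. With every detected probe tested, its dimmer probe differed by 0.45 ± 0.18, without overlap between the groups. The 250 bases before the start are shown for Atp5l and for the 3 genes with the smallest unadjusted p. Each runs 5′ to 3′ on the strand of the gene, and capitals mark the matches, which read as the reverse complement (ATTGG for CCAAT) where they lie on the opposite strand. Ndufb11 is at chrX:20617620-20617869 (minus strand) and has 4 CCAAT matches. Cox7a1 is at chr7:30183921-30184170 (plus strand) and has 2 CCAAT matches around 1 Blimp-1 core match. Sdhd is at chr9:50603850-50604099 (minus strand) and has 1 ETS match. Its full window also holds the ERR letters, which reach past the bases shown. Atp5l is at chr9:44920743-44920992 (minus strand), with CCAAT, NRF1, ETS and E-box matches.
Ndufb11: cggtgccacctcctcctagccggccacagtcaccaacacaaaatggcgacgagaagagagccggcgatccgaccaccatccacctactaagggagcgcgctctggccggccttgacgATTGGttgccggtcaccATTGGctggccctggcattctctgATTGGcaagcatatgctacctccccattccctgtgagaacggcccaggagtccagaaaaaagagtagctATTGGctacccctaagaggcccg
Cox7a1: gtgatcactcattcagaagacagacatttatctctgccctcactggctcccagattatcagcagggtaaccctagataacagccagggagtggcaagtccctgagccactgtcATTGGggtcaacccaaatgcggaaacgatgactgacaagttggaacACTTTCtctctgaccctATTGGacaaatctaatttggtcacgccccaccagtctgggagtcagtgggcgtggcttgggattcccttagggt
Sdhd: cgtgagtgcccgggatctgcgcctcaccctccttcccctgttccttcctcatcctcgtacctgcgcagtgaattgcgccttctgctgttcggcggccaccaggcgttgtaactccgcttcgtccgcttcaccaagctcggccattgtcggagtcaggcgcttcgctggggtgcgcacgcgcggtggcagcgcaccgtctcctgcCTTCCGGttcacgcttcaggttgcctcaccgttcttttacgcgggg
Atp5l: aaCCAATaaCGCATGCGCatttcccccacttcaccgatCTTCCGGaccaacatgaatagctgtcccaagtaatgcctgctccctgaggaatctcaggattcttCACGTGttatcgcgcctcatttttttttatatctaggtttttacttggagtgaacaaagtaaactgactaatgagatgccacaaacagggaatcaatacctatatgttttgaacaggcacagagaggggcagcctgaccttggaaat

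The members varied together between arrays of the same genotype. In Blimp1 gfp/gfp, replicate 1 was the highest of the 3 arrays for 52 of the 68 genes. In Blimp1 +/gfp, replicate 1 was the highest for 56 of them and replicate 3 the lowest for 51. As medians of the deviation from each gene's mean over 6 arrays, the members stood at 0.20, -0.04 and -0.01 in Blimp1 gfp/gfp, against 0.17, -0.07 and -0.20 in Blimp1 +/gfp. All genes tested stood at 0.08, -0.01 and 0.01 in Blimp1 gfp/gfp, against 0.04, -0.02 and -0.07 in Blimp1 +/gfp, so the arrays kept their outer places with smaller steps. The 70 mitochondrial ribosomal protein genes stood alike, at 0.19, -0.03 and -0.05 in Blimp1 gfp/gfp, against 0.14, -0.08 and -0.20 in Blimp1 +/gfp. The 14 citric acid cycle enzymes stood otherwise, at 0.18, 0.04 and 0.02 in Blimp1 gfp/gfp, against -0.04, -0.08 and -0.13 in Blimp1 +/gfp. For 6 carriers and channels the medians were 0.32, 0.04 and 0.10, against -0.11, -0.03 and -0.34. In both of those lists the genotypes did not overlap, and in the other mitochondrial lists they did. Beside these, 13 proliferation markers stood at 0.66, -0.49 and -0.10 in Blimp1 gfp/gfp, against 0.08, 0.51 and -0.63 in Blimp1 +/gfp. The dendritic and antigen presentation markers were highest in Blimp1 +/gfp replicate 3, at 1.5. The part of either in the members' levels was not tested.

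**Figure D4:**
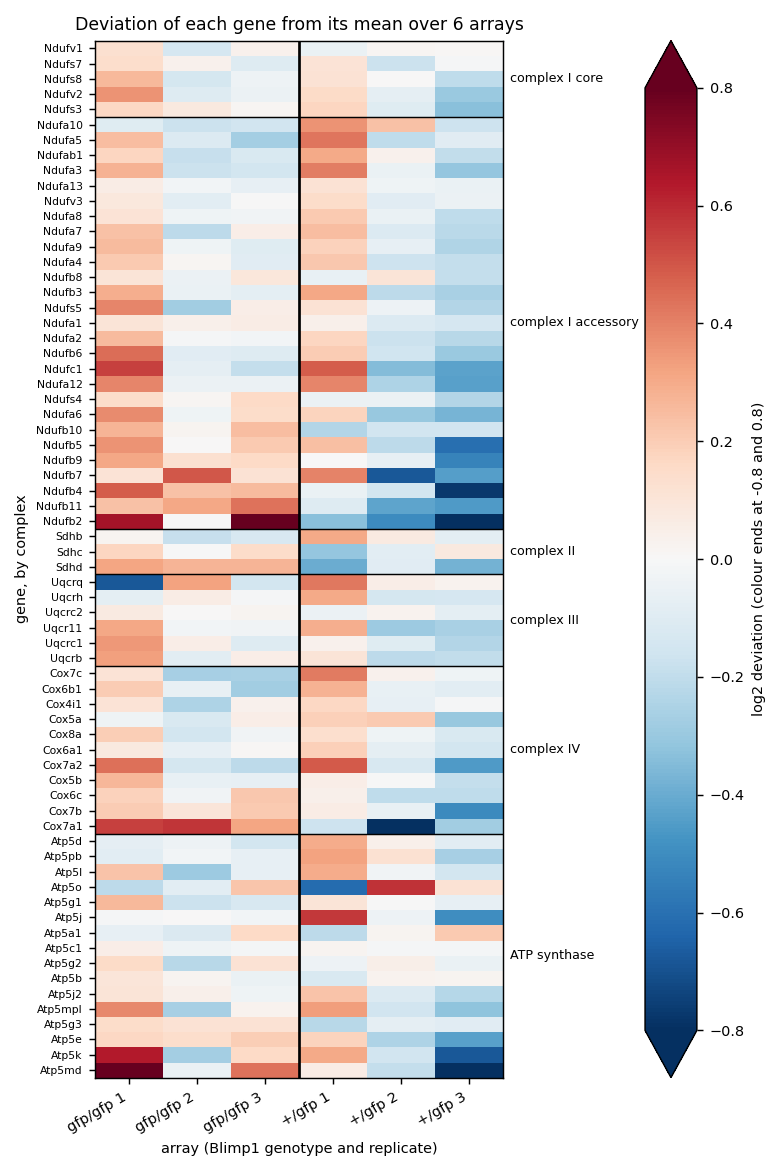
Deviation of each of the 68 genes from its own mean over 6 arrays (colour, log2), with genes by complex down the page and arrays across, Blimp1 gfp/gfp left of Blimp1 +/gfp. The columns of replicate 1 are red for most genes in both genotypes, and that of Blimp1 +/gfp replicate 3 is blue for most.

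**Figure D5:**
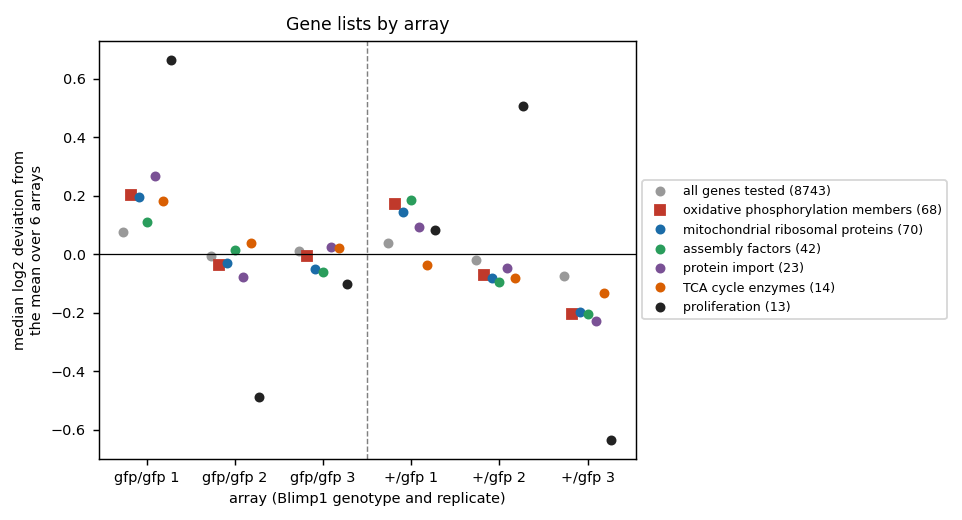
Median log2 deviation from the mean over 6 arrays (y axis) for each array (x axis, Blimp1 gfp/gfp left of Blimp1 +/gfp) of the members, all genes tested, 4 other mitochondrial lists and the proliferation markers. The members stand between -0.20 and 0.20, near the mitochondrial ribosomal proteins, while the proliferation markers spread more widely.

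Where a member had several detected probes, these did not always give the same difference. Of 16 such genes, 11 had probes with differences of opposite sign. For Atp5a1, the alpha subunit of ATP synthase, the brighter probe differed by -0.01. Its second probe had 10.64, 10.59 and 10.78 in Blimp1 gfp/gfp, against 10.14, 10.16 and 9.59 in Blimp1 +/gfp, without overlap. With every detected probe tested, an alternative chosen after seeing the data, this difference of 0.71 ± 0.20 (SE) did not pass (limma, Benjamini-Hochberg adjusted p = 0.129). Ndufa5, a subunit of the arm that faces the matrix, gave -0.09 on its brighter and 0.77 on its dimmer probe, and Ndufb8 gave 0.10 and -0.45. Atp5a1, Ndufa5 and Ndufb8 were named after their values were seen. No source used here places the probes within the transcripts. Several of these genes are known to have processed pseudogenes, so a probe may also bind other transcripts.

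The wider mitochondrial programme held no gene past the threshold either. In limma with Benjamini-Hochberg adjustment, 0 of 42 assembly factors, 14 citric acid cycle enzymes, 70 mitochondrial ribosomal proteins, 23 import factors, 16 regulators of mitochondrial DNA and biogenesis, 6 carriers and channels and 7 ubiquinone synthesis genes passed. At an unadjusted p under 0.05 they gave 1, 1, 2, 2, 2, 2 and 0 genes higher and 1, 0, 0, 0, 0, 0 and 0 lower, in that order, where all genes gave 11.3% higher and 7.22% lower. Median differences were 0.06, 0.18, 0.11, 0.16, 0.07, 0.27 and 0.02, against 0.03 over all genes. Closest to the threshold was Mdh2, the mitochondrial malate dehydrogenase, with a difference of 0.66 ± 0.16 (limma, Benjamini-Hochberg adjusted p = 0.0813). Slc25a4, an isoform of the carrier that exchanges ADP for ATP across the inner membrane, differed by 1.04 ± 0.26 (limma, Benjamini-Hochberg adjusted p = 0.0840). Cox10, which makes the heme O from which the heme A of complex IV is formed, differed by 0.76 ± 0.22 (0.118 in the same test), and Ndufaf3, an assembly factor of complex I, by -0.34 ± 0.14 (0.252). Mrpl52, a protein of the large mitochondrial ribosomal subunit, differed by 0.51 ± 0.14, Pmpcb, the catalytic subunit of the peptidase that trims imported proteins, by 1.14 ± 0.32. Twnk, the mitochondrial DNA helicase, was detected on 3 Blimp1 gfp/gfp and 0 Blimp1 +/gfp arrays, passed the filter only through Blimp1 gfp/gfp and was at least 1.07-fold higher.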

How the data were processed

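RNA of regulatory T cells was amplified and labelled with Cy3, per the labels. The authors deposited a mean bead intensity per probe and array, neither background-subtracted nor normalized, and, per the file headers, a detection p-value. A deposited table of log2 values matched limma's neqc of these intensities within 0.0975. BeadStudio and limma are named in the submitters' processing notes, and no source used here gives their versions.

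Intensities were processed with neqc (normexp with an offset of 16, quantile normalization, log2) in limma 3.58.1 under R 4.3.3. The offset compresses dim genes, so their differences are understated. Probes with 1 symbol (29976 of 46632, with 29921 found in RefSeq, GRCm38.p6, under an unchanged symbol) were kept if detected (p under 0.05) on 3 or more of the 6 arrays. Each gene took its probe with the highest mean of the deposited log2 values, which left 8743 genes. Genotypes were compared with lmFit and eBayes over all 8743, with Benjamini-Hochberg adjustment and a threshold of 0.05. The fit was tested on simulated data. A gene undetected throughout a group has a bound in place of a fold, taken per array against the higher of its own value and the lowest value of a detected probe.

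Members, gene lists and motifs were chosen with earlier results of these data known. Genes were named by rule: the 3 smallest p in each complex, isoform sets, and members near or below the detection filter, beside the top genes of each mitochondrial list. Ndufv1, Ndufa1, Ndufa10, Ndufb7, Cox7c, Atp5d, Atp5k, Atp5l and others marked in the text were named after their values were seen. The replicate numbers were not taken as pairs in the main fit. Deviations of same-numbered arrays correlated at 0.19, -0.08 and 0.00 over all genes, and at 0.40, -0.28 and 0.07 over the members. Alternatives were the deposited log2 values, other background corrections and normalizations, other filters and probe summaries, array weights, other variance models, the omission of arrays and a replicate block. Figures were drawn with matplotlib 3.10.9.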

Additional observations from a re-analysis of the deposited data

How the results depend on the processing

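The count of 0 members past the threshold held in 19 of the 20 alternatives run (limma, Benjamini-Hochberg). With array weights 3 of the 68 members were called higher: Ndufb11 (adjusted p = 0.0148), Cox7a1 (0.0290) and Ndufb2 (0.0290). In that setting 492 of all 8743 genes were called higher, and Ndufb2 passed the filter only through Blimp1 gfp/gfp. The count of members called lower was 0 in every alternative run. At an unadjusted p under 0.05, the alternatives gave 4 to 11 members higher and 0 to 1 lower. Over all genes, 827 were called with array weights and 171 with the replicate block, against 360, and 87 to 366 when single arrays were left out, lowest without Blimp1 +/gfp replicate 1. Each such omission but that of Blimp1 +/gfp replicate 3 lowered this count by over 1.5 times. Without replicate 1 of both genotypes, chosen after seeing the data, 8 were called, so with 2 arrays per genotype the lack of member calls says little. The members' median difference ran from -0.01 to 0.19, and only the omission of Blimp1 gfp/gfp replicate 1 turned its sign. It exceeded that of all genes in every other alternative, under cyclic loess (0.07 against 0.00) and median scaling (0.13 against 0.05) too. For the 26 named members, 30 of 491 recomputed differences changed sign, none of them past the threshold. The replicate block called 0 members, with a smallest adjusted p of 0.144 (limma, Benjamini-Hochberg). The probes of 9 members were dim, among them Ndufs1, Sdha and Uqcrfs1, and this signal limits what can be said of them.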

Other observations

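The Ndufb genes, whose products belong to the membrane arm of complex I, were all higher on average in Blimp1 gfp/gfp, a grouping noticed after their values were seen and therefore not tested. Ndufb2 was below detection in Blimp1 +/gfp and passed the filter only through Blimp1 gfp/gfp. The 9 others ran from 0.10 (Ndufb8) to 0.65 (Ndufb11), with a median of 0.38, and the groups did not overlap for 4 of them (Ndufb4, Ndufb9, Ndufb10 and Ndufb11), where 15.4% of all genes did not overlap in that direction. The 17 other accessory subunits, with Ndufa4 counted among them by name, had a median of 0.08, and 1 of them, Ndufs4, did not overlap. No Ndufb gene passed the adjusted test in limma, and 3 of the 9 had an unadjusted p under 0.05, against 11.3% of all genes. Of the 10 Ndufb genes, 5 had a mean log2 intensity under 10, a range in which the median over all 15 members was 0.40. The Ndufb median stayed above that of the other complex I genes in all 20 alternatives, at 0.31 to 0.55 against -0.03 to 0.19. Ndufb2 was counted in each but the filter at detection p under 0.01 on all 6 arrays, which left 8 Ndufb genes. The alternatives reuse the same arrays, so they do not test the grouping. All Ndufb differences computed were above 0 in 17 of the 20. The exceptions were the omission of Blimp1 gfp/gfp replicate 1 (8 of 10), the mean over probes (9 of 10) and the test of every detected probe (10 of 11), where the dimmer probe of Ndufb8 differed by -0.45.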
